A study of Rattus norvegicus with 54 samples.

Results

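Livers of rats fed a high-fructose diet (HFrD) were compared with livers of rats fed chow on 6 single-colour arrays, 3 for each diet, out of the 54 arrays of a study that also covered muscle, adipose tissue and HFrD with NDGA. The members were taken by their labels, the liver arrays whose diet label is HF or CHOW without the letters INS, and every named gene was examined, 19791 in all. The animals were male Sprague-Dawley rats that had chow for 1 week and then HFrD or chow for 16 weeks according to the treatment protocol, while the text on the study's design gives a shorter time. Beside fructose the HFrD held casein, lard, cellulose and a mineral mix, and the make-up of the chow is not given. Effects of fructose and of other differences between the diets therefore cannot be told apart here. RNA from the rats of a group was pooled in equal amount and each pool was hybridized to 3 repeat arrays, so the p-values here measure the spread between arrays of 1 pool and say nothing of the spread between rats. The ages of the rats are not given in the sources used here. The liver also has 3 arrays of HFrD and 3 of chow whose labels add INS, letters that no source used here explains, and these are set beside the main comparison further on.

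Fructose enters the liver with portal blood and is phosphorylated and split there without passing the phosphofructokinase step that limits glycolysis. Its carbon therefore reaches pyruvate and acetyl-CoA readily, and the liver turns part of it into fatty acids and triglycerides. The transcription factors ChREBP (gene *Mlxipl*), which senses sugar phosphates, and SREBP-1c (gene *Srebf1*), which follows insulin, switch on the enzymes of that route, while SREBP-2, bile acid receptors and the insulin-repressed factor FOXO1 govern neighbouring programmes.

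The 3 HFrD arrays detected 56.9% to 58.8% of all probes and the 3 chow arrays 59.5% to 60.2%, where a probe counts as detected at a deposited detection p under 0.05. Median raw intensities were 99 to 118 on HFrD and 123 to 147 on chow before scaling, and quantile normalization then gave all arrays the same distribution. All 8 hepatocyte markers on the array were above background. *Alb*, albumin, was saturated at 65500 to 65501 on HFrD and on all but 1 chow array, and the summed normalized intensity of the list was 386860 to 390345 on HFrD and 359413 to 388997 on chow. Taken over all genes, the root mean square difference in log2 value was 0.46 to 0.567 between an HFrD and a chow array, against 0.253 to 0.304 among HFrD arrays and 0.337 to 0.416 among chow arrays.

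At an adjusted p under 0.05, 1957 genes (9.89% of the 19791 tested) were higher on HFrD and 1205 (6.09%) were lower, 3162 or 16% together. The test was limma on log2 values with Benjamini-Hochberg adjustment over all genes, and "rose" and "fell" are used below only of genes that passed it. Of these genes 405 (2.05%) changed at least 2-fold, 208 upward and 197 downward, and the median size of a change among the called genes was 0.52 on the log2 scale. All 3 HFrD arrays lay above all 3 chow arrays for 22.3% of genes and below them for 18%. Among the called genes 2671 were above background on both diets, 185 on 1 diet only, for which a fold is a lower bound, and 306 allowed no fold. Leaving out 1 HFrD array cut the calls to 1690 to 1759, and centring each array on its median moved the median change of all genes to 0.23 and the share of calls that were higher from 61.9% to 76.9%, and the number of falls to 751. Among falls given below, those of *Pfkm*, *Srebf2*, *Nr1i3*, *Osgin1*, *Nqo1*, *Cry1*, *Ccnd1*, *Hamp*, *Il1b*, *S100a9*, *Gzma*, *Cd74*, *RT1-Ba*, *Sord*, *Slc2a8*, *Ppp1r3c* and *Ppp1r15a* did not pass under that centring. Of genes given below as not passing, *Pklr*, *Mid1ip1*, *Tkt*, *Taldo1* and *Hmox1* passed under it, as higher on HFrD. Counts and medians of the gene lists were taken with the main scaling only, so how far they depend on scaling was not tested.

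**Figure D1:**
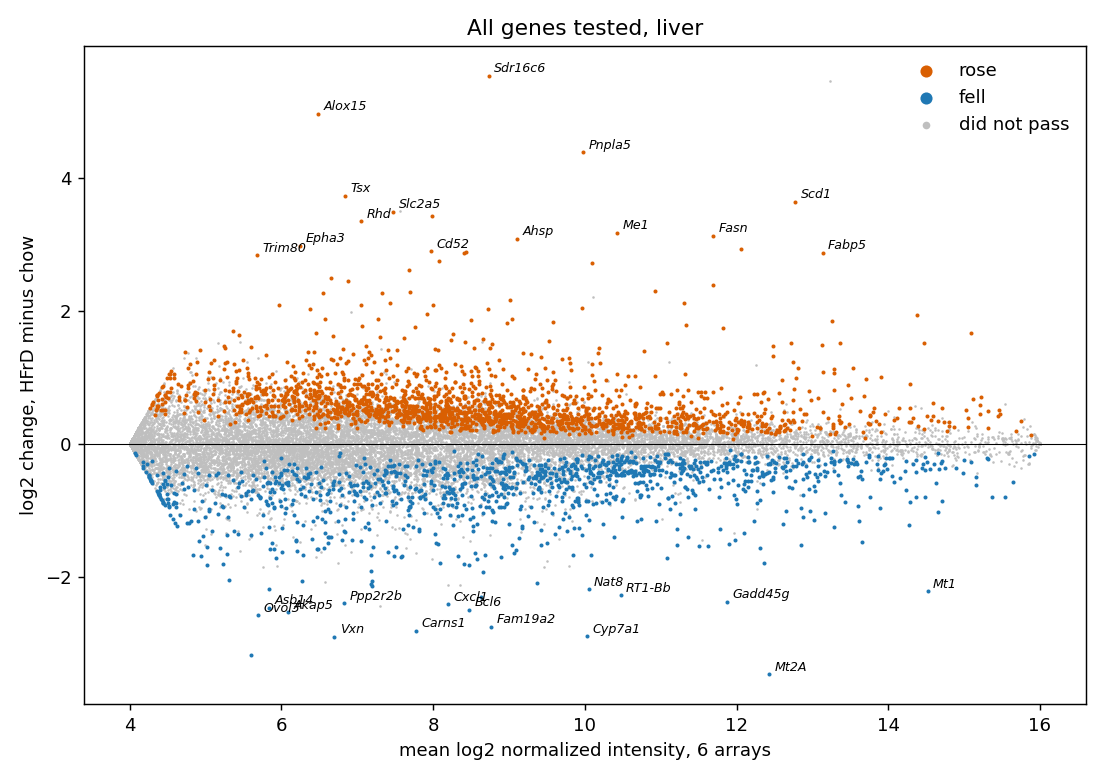
Change of each of the 19791 genes on HFrD relative to chow (vertical axis, log2) against its mean log2 normalized intensity over the 6 arrays (horizontal axis). Grey points did not pass the test, orange points rose and blue points fell, and the labels mark the largest rises and falls named in the text, from *Sdr16c6* at 5.53 to *Mt2A* at -3.47.

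Genes that make fatty acids rose together. Of 21 genes of de novo lipogenesis on the array, 17 were higher on HFrD and 0 lower (81% higher, against 9.89% of all genes), with a median change of 1.13 where the median of all genes was 0. *Scd1*, the desaturase that makes oleate from stearate, had normalized intensities of 24485, 25434 and 24403 on HFrD, against 1880, 2390 and 1740 on chow. *Fasn*, fatty acid synthase, read 9501, 10241 and 9484 on HFrD, against 1158, 1205 and 1005 on chow. For both genes every HFrD array lay far above every chow array, and the log2 changes were 3.64 (SE 0.11) and 3.12 (SE 0.08).

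The rises of *Acly* and *Thrsp* were smaller than those of *Scd1* and *Fasn*. *Acly*, which cleaves citrate to cytosolic acetyl-CoA, stood at 42000, 41625 and 40750 on HFrD, against 10692, 10525 and 11414 on chow. *Thrsp*, the Spot 14 protein of lipogenic tissues, stood at 37895, 39801 and 36875 on HFrD, against 13746, 13618 and 12786 on chow. The groups did not overlap for either gene, and the changes were 1.93 (SE 0.05) and 1.51 (SE 0.05). *Acaca*, acetyl-CoA carboxylase 1, was above background on HFrD only and rose at least 3.01-fold.

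The genes for the regulators themselves rose as well. *Mlxipl* had 2335, 2271 and 2278 on HFrD, against 1188, 1059 and 1171 on chow, a change of 1.01 (SE 0.06). *Srebf1* had 1712, 1852 and 1812 on HFrD, against 1158, 994 and 1122 on chow, a change of 0.72 (SE 0.08), and its second probe gave 0.60. Both were higher on every HFrD array, by less than the enzymes above. The 4 members that did not pass were *Pklr*, *Mid1ip1*, *Aacs* and *Gpam*. Pyruvate kinase, *Pklr*, read 879, 2141 and 2230 on HFrD, against 716, 693 and 661 on chow, so that 1 HFrD array lay near the chow arrays (change 1.23, SE 0.35, limma adjusted p = 0.0592). Adjusted p in limma for the genes of this route that rose and are named here ran from 5.17e-06 to 0.00207.

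**Figure D2:**
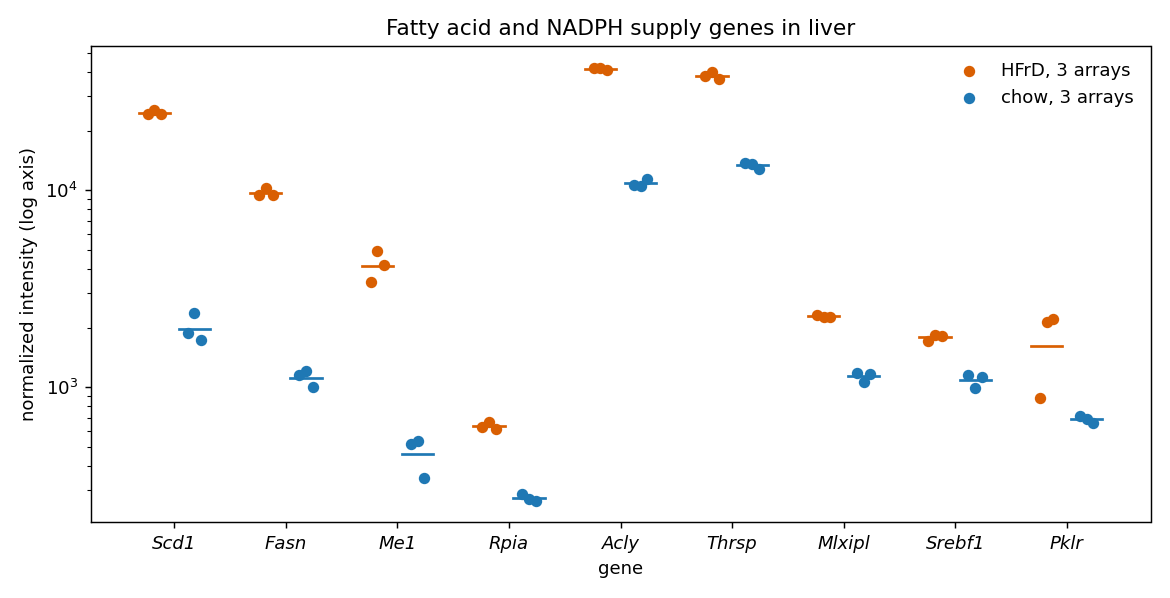
Normalized intensity (log axis) of 9 genes of fatty acid and NADPH supply on the 3 HFrD arrays (orange, left) and the 3 chow arrays (blue, right) of each gene, with a bar at the mean of the log values. *Scd1*, *Fasn* and *Me1* lie apart by the widest gap, and the lowest HFrD point of *Pklr*, 879, sits close to its chow points.

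Lipogenesis consumes NADPH, which the pentose phosphate pathway and malic enzyme supply. *Me1*, cytosolic malic enzyme, had 3424, 4909 and 4174 on HFrD, against 518, 536 and 346 on chow (change 3.17, SE 0.23). *Rpia*, ribose-phosphate isomerase, had 628, 665 and 615 on HFrD, against 287, 271 and 266 on chow (change 1.21, SE 0.05). The arrays of each diet kept apart for both genes. Of 9 genes of the pathway and NADPH supply 4 rose (44.4%, against 9.89% of all genes) and 0 fell. Among the rises was *Idh1*, cytosolic isocitrate dehydrogenase, at 0.29 (SE 0.05). The later enzymes *Tkt* and *Taldo1* were at 0.33 and 0.20 and did not pass (adjusted p of the genes named as risen 4.33e-05 to 0.0106 in limma). With each array centred on its median these 2 read 0.75 and 0.63 and passed (limma adjusted p 0.0159 and 0.0267).

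Of 10 genes of fructose entry and breakdown 4 rose (40%, against 9.89% of all genes) and 2 fell (20%, against 6.09%), with a median of 0.08. *Slc2a5*, the fructose transporter GLUT5, had 588, 579 and 622 on HFrD and was not above background on chow, where it read 53.1, 54.4 and 52, so it rose at least 8.77-fold. *Tkfc*, triokinase, which phosphorylates glyceraldehyde from fructose, had 10459, 10940 and 10281 on HFrD, against 4488, 4213 and 4801 on chow (change 1.23, SE 0.06). Ketohexokinase, *Khk*, was already bright and had 44484, 44333 and 43186 on HFrD, against 32380, 30174 and 34294 on chow (change 0.45, SE 0.05). All 3 kept their groups apart. The glucose transporter *Slc2a2* rose by 0.45 (SE 0.12) at an adjusted p of 0.0495 in limma, and that call was lost without HFrD 1, 2 or 3, without chow 1 or 3, or without any HFrD-NDGA array of the same fit (limma adjusted p up to 0.14). The 2 of the 10 genes that fell were *Sord*, sorbitol dehydrogenase, at -0.45 and the transporter *Slc2a8* at -0.59, and the first call was lost without HFrD 1, 2 or 3, chow 2 or 3 or any HFrD-NDGA array (limma adjusted p up to 0.136) and the second without HFrD 3 (0.0584). In limma the adjusted p of these fructose genes ranged from 1.27e-05 to 0.0495.

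Among genes of glycolysis and pyruvate use, 11 of 30 rose (36.7%, against 9.89% of all genes) and 1 fell (3.33%, against 6.09%), with a median of 0.21. *Pfkfb1*, the liver enzyme that makes and breaks fructose 2,6-bisphosphate, had 4828, 4714 and 4809 on HFrD, against 1414, 1260 and 1500 on chow (change 1.79, SE 0.11). No HFrD array entered the chow range. The pyruvate dehydrogenase kinases *Pdk1* and *Pdk4*, which switch that complex off, rose by 1.74 (SE 0.08) and 1.13 (SE 0.07). The 1 that fell was the muscle-type phosphofructokinase *Pfkm*, at -0.62 (SE 0.09). Among 10 genes of gluconeogenesis 3 rose (30%), *Pc*, *Got1* and *Gpd1*, by 0.74, 0.47 and 0.38, and 0 fell. *G6pc1*, glucose-6-phosphatase, had 5850, 6105 and 5981 on HFrD and 8050, 6306 and 8416 on chow, lower on every HFrD array but short of the threshold (adjusted p = 0.0832 in limma), and its change read 0.09 with each array centred on its median. *Pck1*, which makes phosphoenolpyruvate, was saturated or nearly so on 5 of the 6 arrays and cannot be ranked. Of 14 glycogen genes 4 rose (28.6%), led by the targeting subunit *Ppp1r3g* at 1.28 (SE 0.15) and the branching enzyme *Gbe1* at 0.61 (SE 0.10). *Ppp1r3c* alone fell (7.14%, against 6.09% of all genes), by 0.53. That call was lost without HFrD 1, 2 or 3 or chow 1 or 2 (limma adjusted p up to 0.0814). For the sugar and glycogen genes called here, limma gave adjusted p from 5.43e-05 to 0.0255.

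Among genes that store and move lipid, single members moved strongly while most members did not pass. *Pnpla5*, a lipase of the patatin family, had 4699, 4612 and 4499 on HFrD, against 221, 240 and 201 on chow, a change of 4.38 (SE 0.07). *Lpin1*, the phosphatidate phosphatase that makes diacylglycerol, had 630, 714 and 720 on HFrD, against 226, 179 and 169 on chow (change 1.86, SE 0.11). *Cidea*, a lipid droplet protein, went the other way with 782, 837 and 843 on HFrD, against 2265, 2046 and 2213 on chow (change -1.41, SE 0.05). No array of one diet entered the range of the other for these 3. Of 18 genes of triglyceride and VLDL assembly 4 rose (22.2%, against 9.89% of all genes) and 0 fell (median 0.03). Of 17 genes of droplets and lipolysis 3 rose (17.6%) and 2 fell (11.8%, against 6.09% of all genes), with a median of 0.01. The rises were *Abhd5*, *Plin2* and *Hsd17b13*, by 1.12, 0.69 and 0.53, and the falls *Cidea* and *Hsd17b11*. The fall of *Hsd17b11*, by 0.37, read 0.07 with each array centred on its median and was lost without HFrD 1, 2 or 3, chow 1 or 3 or HFrD-NDGA 1 or 2 (limma adjusted p up to 0.1). The fatty acid binding proteins *Fabp5* and *Fabp2* rose by 2.87 (SE 0.10) and 2.09 (SE 0.11), with *Fabp5* at 23923 to 24485 on HFrD and 2847 to 3840 on chow. The lipid storage genes that passed had limma adjusted p from 1.63e-06 to 0.0323.

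Of 24 genes of mitochondrial fatty acid oxidation and ketogenesis 6 rose (25%, against 9.89% of all genes) and 1 fell (4.17%, against 6.09%), with a median of 0.09. Of 22 peroxisomal genes 5 rose (22.7%) and 3 fell (13.6%), with a median of 0.06. *Cpt1a*, the gate for acyl groups into mitochondria, had 13103, 13404 and 12541 on HFrD, against 7197, 6804 and 4840 on chow (change 1.07, SE 0.17). Its arrays did not overlap between the diets. The list of PPAR-alpha targets split, with 8 of 20 higher (40%) and 5 lower (25%). *Fgf21*, a hormone the liver secretes, had 579, 584 and 576 on HFrD, against 203, 218 and 182 on chow (change 1.53, SE 0.12), and *Angptl4*, an inhibitor of lipoprotein lipase, rose by 1.31 (SE 0.05). The omega-hydroxylases *Cyp4a2* and *Cyp4a8* fell by 1.52 (SE 0.17) and 1.09 (SE 0.13). The receptor gene itself, *Ppara*, had 460, 562 and 454 on HFrD and 559, 473 and 407 on chow and did not pass. Oxidation genes and PPAR-alpha targets named as changed had limma adjusted p from 2.77e-05 to 0.0081.

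Cholesterol genes moved both ways. Of 27 genes of cholesterol synthesis and uptake 9 rose (33.3%, against 9.89% of all genes) and 12 fell (44.4%, against 6.09%), with a median of -0.18. *Insig1*, which retains the SREBP complex in the endoplasmic reticulum, had 18939, 19315 and 15783 on HFrD, against 6306, 5823 and 6612 on chow (change 1.52, SE 0.10). *Sqle*, squalene epoxidase, had 1872, 1872 and 1791 on HFrD, against 5707, 5332 and 5099 on chow (change -1.54, SE 0.08). *Idi1*, isopentenyl diphosphate isomerase, had 1632, 1542 and 1659 on HFrD, against 3886, 5040 and 3973 on chow (change -1.41, SE 0.11). The arrays of the 2 diets were apart in all of these. *Tm7sf2*, a sterol reductase, fell by 1.15 (SE 0.05) and *Srebf2*, the gene of SREBP-2, by 0.44 (SE 0.07), which read -0.02 with each array centred on its median. The call of *Srebf2* was also lost with 75th percentile scaling and with no scaling (limma adjusted p 0.114 and 0.0833). *Insig2*, the relative of *Insig1*, fell by 0.27, which read 0.15 with each array centred on its median. That call was lost without HFrD 1 or 3 (limma adjusted p up to 0.0612).

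Single genes of bile acid synthesis and of lipid export into bile fell. Of 17 genes of bile acid synthesis 5 fell (29.4%, against 6.09% of all genes) and 1 rose (5.88%, against 9.89%). Of 14 genes of sterol efflux and esterification 3 fell (21.4%) and 0 rose. *Cyp7a1*, which starts and limits the classic route of bile acid synthesis, had 378, 348 and 424 on HFrD, against 2672, 2840 and 3024 on chow, a change of -2.90 (SE 0.08). *Abcg5*, 1 subunit of the sterol exporter of the bile canaliculus, had 168, 187 and 191 on HFrD, against 632, 605 and 674 on chow (change -1.81, SE 0.07). Its partner *Abcg8* was not above background on either diet. *Abcb4*, which carries phosphatidylcholine into bile, had 567, 619 and 598 on HFrD, against 1329, 1181 and 1168 on chow (change -1.04, SE 0.06). All 3 measured genes were lower on every HFrD array. *Cyp7b1* of the alternative route fell at least 1.25-fold, while *Cyp8b1*, which sets the proportion of cholic acid, had 7213, 7331 and 6883 on HFrD and 7721, 7180 and 7841 on chow and did not pass. *Nr0b2*, the repressor SHP, was at -0.27 (SE 0.13) and did not pass either. Of 19 bile and organic anion transporters 8 fell (42.1%) and 1 rose (5.26%), *Abcg2*, by 0.99 (SE 0.10). Adjusted p in limma for the sterol and bile genes that passed and kept their calls with each array left out ran from 8.73e-06 to 0.0107.

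**Figure D3:**
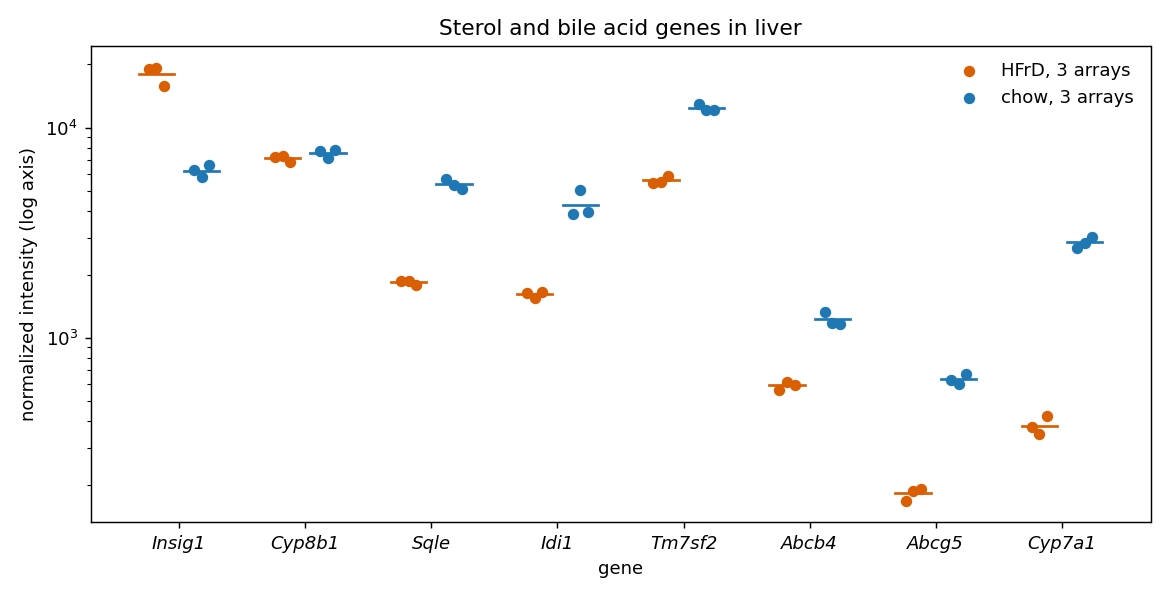
Normalized intensity (log axis) of 8 sterol and bile acid genes on the 3 HFrD arrays (orange, left) and the 3 chow arrays (blue, right), with a bar at the mean of the log values. *Insig1* sits higher on HFrD, *Cyp8b1* overlaps, and *Sqle*, *Idi1*, *Tm7sf2*, *Abcb4*, *Abcg5* and *Cyp7a1* sit lower.

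The largest fall among called genes was that of a metallothionein, *Mt2A*. Metallothioneins are small cysteine-rich proteins that bind zinc and copper and are induced by metals, glucocorticoids and inflammation. *Mt2A* had 1717, 1592 and 1662 on HFrD, against 17623, 18200 and 19315 on chow, a change of -3.47 (SE 0.05), and its second probe gave -3.40. *Mt1* had 11012, 10439 and 11203 on HFrD, against 50890, 54115 and 47205 on chow, a change of -2.22 (SE 0.05). Every HFrD array lay far under every chow array for both (limma adjusted p 1.63e-06 and 4.45e-06). The 2 genes are close relatives and neighbours on chromosome 19, and whether the probes tell their transcripts apart was not tested.

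Because both genes fell together, the 250 bases before each start site are printed, 5′ to 3′ on the minus strand, from RefSeq (build GRCr8). Capitals mark the metal response element, the letters TGCACNC or TGCGCNC on either strand, where the zinc-sensing factor MTF-1 is known to bind.
Mt1, chr19:10832976-10833225: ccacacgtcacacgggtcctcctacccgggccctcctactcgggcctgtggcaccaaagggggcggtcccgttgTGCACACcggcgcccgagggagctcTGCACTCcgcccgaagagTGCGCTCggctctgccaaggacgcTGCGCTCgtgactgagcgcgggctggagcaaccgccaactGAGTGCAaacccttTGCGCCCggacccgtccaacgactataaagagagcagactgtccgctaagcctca
Mt2A, chr19:10838709-10838958: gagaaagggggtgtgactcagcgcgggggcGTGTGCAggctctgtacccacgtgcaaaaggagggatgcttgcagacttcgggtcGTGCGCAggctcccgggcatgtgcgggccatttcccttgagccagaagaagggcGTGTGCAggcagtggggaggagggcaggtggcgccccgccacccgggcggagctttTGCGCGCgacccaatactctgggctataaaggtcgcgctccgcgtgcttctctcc
The window of *Mt1* held 6 such matches and that of *Mt2A* 4, and a TATA box began 32 and 31 bases before the start. At least 1 match stood in 20.6% of the 33469 promoters of the same length and at least 4 in 0.266%. A match is only a match of letters, and 27.8% of the 841 promoters of genes that fell held at least 1, against 28.2% of the 13047 promoters of all genes tested. At least 4 stood in 0.357% of the promoters of genes that fell, against 0.399% of those of all genes tested.

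Genes that clear foreign and endogenous compounds were more often lower than higher. Of 32 drug-metabolizing P450 genes and regulators 0 rose and 10 fell (31.2%, against 6.09% of all genes), with a median of -0.15. Of 33 conjugating enzymes 3 rose (9.09%, against 9.89% of all genes) and 12 fell (36.4%). *Cyp3a9* had 2344, 2606 and 2408 on HFrD, against 6669, 7776 and 5836 on chow (change -1.45, SE 0.13). *Ugt2b1*, a glucuronosyltransferase, had 4153, 4266 and 4716 on HFrD, against 12678, 13149 and 11820 on chow (change -1.52, SE 0.11), and *Gstt3*, a glutathione transferase, had 7750, 8000 and 7461 on HFrD, against 22470, 21647 and 20788 on chow (change -1.48, SE 0.04). The groups were apart for these 3. *Cyp2c12* also fell, by 1.79 (SE 0.08), from a family of close paralogs whose male member *Cyp2c11* read 64870 to 65474 over the 6 arrays, at the top of the scanner's range, so no change in it could be seen. *Nr1i3*, the receptor CAR that induces many of these enzymes, fell by 0.75 (SE 0.10). *Cyp2e1* had 43951, 48712 and 47844 on HFrD and 56425, 46568 and 54514 on chow, and did not pass. The sulfotransferase *Sult2b1*, which acts on cholesterol, rose by 1.82 (SE 0.13). Limma adjusted p of the clearance genes that passed lay between 1.14e-05 and 0.00433.

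Of 19 targets of NRF2, the factor of the antioxidant response, 0 rose and 9 fell (47.4%, against 6.09% of all genes), at a median of -0.18. *Akr7a3*, an aldehyde reductase, had 5105, 4969 and 5238 on HFrD, against 10281, 11336 and 11216 on chow (change -1.10, SE 0.04), and *Osgin1* fell by 0.70 (SE 0.03). *Nqo1* had 635, 700 and 611 on HFrD, against 900, 971 and 801 on chow, at -0.45 (SE 0.10), a call lost without HFrD 1 or 3 or chow 1 or 2 (limma adjusted p up to 0.0848). *Hmox1* was at 0.28 and did not pass. With each array centred on its median, *Osgin1* and *Nqo1* read -0.27 and -0.12 and did not pass. *Hmox1* then read 0.70 and passed (limma adjusted p 0.0388). The 3 NRF2 targets named as lower had limma adjusted p from 2.6e-05 to 0.0236.

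**Figure D4:**
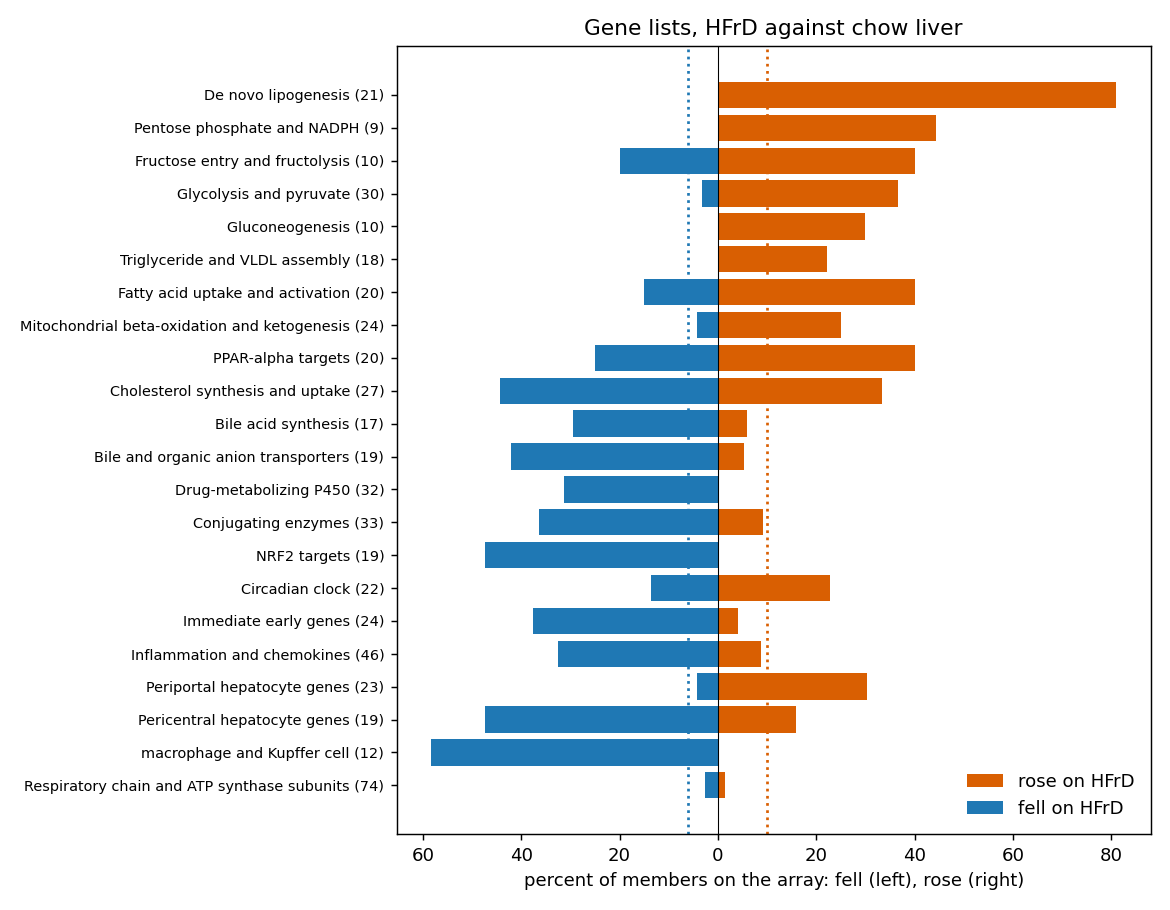
Share of the members of 22 gene lists that rose (orange, to the right) or fell (blue, to the left) on HFrD, in percent of the members on the array, with the number of members beside each name. Dotted lines mark the shares among all genes, 9.89% higher and 6.09% lower. De novo lipogenesis, at 81% higher, and the macrophage markers, at 58.3% lower, lie at the ends.

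Hormone-linked genes of the hepatocyte moved in both directions. *Igfbp1*, which insulin represses, had 2969, 3188 and 2698 on HFrD, against 9102, 9039 and 8129 on chow (change -1.57, SE 0.08). *Socs2*, a feedback inhibitor of growth hormone signalling, had 433, 421 and 519 on HFrD, against 97.9, 116 and 73.3 on chow (change 2.28, SE 0.22). *Bcl6*, a repressor that growth hormone controls in liver, had 141, 142 and 165 on HFrD, against 894, 843 and 794 on chow (change -2.50, SE 0.10). None of the 3 overlapped. *Igf1*, with 7015, 6895 and 6694 on HFrD and 7354, 7495 and 6513 on chow, did not pass. *Onecut1*, the hepatocyte factor HNF6, had 4363, 4291 and 4249 on HFrD, against 892, 871 and 884 on chow (change 2.29, SE 0.04). Of 49 lipid and hepatocyte transcription factors 13 rose (26.5%) and 5 fell (10.2%), with a median of 0.05. *Foxa3*, a forkhead factor of hepatocytes, fell by 0.96 (SE 0.05). *Pik3r1*, a subunit of the insulin-activated lipid kinase, rose by 1.13 (SE 0.13) and *Trib3* by 1.14 (SE 0.06). They were among 4 of 25 insulin signalling genes that rose (16%, against 9.89% of all genes). *Igfbp1* was the 1 that fell (4%, against 6.09%). *Hamp*, the iron hormone hepcidin, had 42364, 39966 and 43380 on HFrD, against 62504, 62504 and 63128 on chow, near the top of the scanner's range (change -0.58, SE 0.03). Adjusted p of the hormone-linked genes that passed was 3.6e-06 to 0.00256 in limma.

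Clock genes split as well. *Per1* had 198, 206 and 226 on HFrD, against 93.3, 92.7 and 90.4 on chow (change 1.19, SE 0.10), and *Nr1d1*, the repressor REV-ERB alpha, had 410, 399 and 424 on HFrD, against 207, 162 and 194 on chow (change 1.14, SE 0.09). *Per2*, another period gene, had 303, 296 and 296 on HFrD, against 721, 680 and 625 on chow (change -1.18, SE 0.14). The 2 diets did not overlap for any of them. *Cry1* fell by 0.75 (SE 0.11), while *Bmal1* and *Dbp*, at 0.22 and -0.07, did not pass. In all 5 of 22 rose (22.7%, against 9.89% of all genes) and 3 fell (13.6%, against 6.09%). The hour at which the rats of each diet were killed is not given in the sources used here. The clock genes that passed had adjusted p from 0.000491 to 0.00672 in limma.

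Of 24 immediate early genes, which respond within minutes to signals and handling, 9 fell (37.5%), 1 rose, *Dusp6*, by 0.79 (SE 0.04), and the others did not pass, with a median of -0.20. *Jun* had 317, 348 and 364 on HFrD, against 1020, 898 and 838 on chow (change -1.42, SE 0.11), and *Btg2* had 568, 577 and 506 on HFrD, against 1413, 1193 and 1544 on chow (change -1.32, SE 0.11). *Egr1* fell by 1.60, a call lost without HFrD 3 or chow 3 (limma adjusted p up to 0.0599). *Gadd45g*, a growth-arrest gene, had 1667, 1676 and 1584 on HFrD, against 8472, 8955 and 8174 on chow (change -2.38, SE 0.06). The arrays of the 2 diets were apart for all 4 of these genes. *Ccnd1*, cyclin D1, had 3035, 2917 and 3015 on HFrD, against 5072, 5244 and 6710 on chow (change -0.91, SE 0.10), whereas *Mki67*, a proliferation marker, stood at 138, 123 and 133 on HFrD and 66.8, 73.3 and 55.1 on chow (change 1.02, SE 0.14), where only 1 chow array detected it. Of 36 cell cycle genes 4 rose (11.1%, against 9.89% of all genes) and *Ccnd1* alone fell (2.78%, against 6.09%), so the share that rose was near that of all genes. Of 26 genes of endoplasmic reticulum stress 4 rose (15.4%, against 9.89% of all genes) and 1 fell (3.85%, against 6.09%). The fall was that of *Ppp1r15a*, a phosphatase subunit of the stress response, by 0.88. That call was lost without any 1 of the 6 arrays or HFrD-NDGA 1 (limma adjusted p up to 0.126). The chaperone *Hspa5* and the factor *Ddit3*, at -0.04 and -0.21, did not pass. The median of this list was 0.18, and its 4 rises, which went the other way from these genes, are not named here. Of 13 heat shock genes 3 rose (23.1%) and 2 fell (15.4%), with a median of 0.06. The co-chaperone *Dnajb1* and the chaperone *Hsph1* rose by 0.70 (SE 0.06) and 0.26 (SE 0.05), the factor *Hsf1* was not above background on chow and was at least 1.19-fold higher, and the small heat shock proteins *Hspb1* and *Cryab* fell by 1.27 (SE 0.07) and 1.11 (SE 0.08). The calls of *Hsph1* and *Hsf1* were lost without any 1 HFrD array, among other settings (limma adjusted p up to 0.0803 and 0.195). Across the stress and cell cycle genes that passed, limma adjusted p ran from 5.17e-06 to 0.0423.

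Of 46 genes of inflammation and chemokines 15 fell (32.6%, against 6.09% of all genes) and 4 rose (8.7%, against 9.89%). *Cxcl1*, a neutrophil-attracting chemokine, had 118, 127 and 135 on HFrD, against 684, 674 and 666 on chow (change -2.42, SE 0.12), *Cd14*, the endotoxin co-receptor, had 994, 980 and 983 on HFrD, against 2095, 2037 and 2201 on chow (change -1.10, SE 0.04), and *Il1b* had 420, 435 and 458 on HFrD, against 775, 652 and 787 on chow (change -0.75, SE 0.08). The diets were apart in all of them. The 4 that rose were *Alox15*, arachidonate 15-lipoxygenase, the chemokine *Cxcl9*, the adhesion molecule *Vcam1* and the adaptor *Myd88*. *Alox15* had 462, 508 and 524 on HFrD and read the floor of 16 on all chow arrays, so it rose at least 7.32-fold. *Cxcl9*, *Vcam1* and *Myd88* rose by 0.65 (SE 0.08), 0.55 (SE 0.13) and 0.46 (SE 0.08), and the call of *Vcam1* was lost without any 1 of the 6 arrays (limma adjusted p up to 0.104). *Tnf* and *Ccl2* were not above background on either diet. In bulk liver, fewer cells of a type and less RNA per cell cannot be told apart. Of 12 macrophage and Kupffer cell markers 7 fell and 0 rose (58.3%), with summed intensities of 35438 to 36797 on HFrD and 48172 to 51945 on chow, and 11 of the 12 were above background. *Marco*, a scavenger receptor of Kupffer cells, had 1691, 1747 and 1652 on HFrD, against 5175, 4627 and 4998 on chow (change -1.54, SE 0.08), while *Cd68* was at -0.12 and did not pass. Of 10 T and NK cell markers 3 fell (30%, against 6.09% of all genes) and 0 rose. The falls were *Gzma*, *Cd8a* and *Cd4*, by 0.84, 0.76 and 0.51, and the list summed to 2852 to 3084 on HFrD and 4431 to 4582 on chow. *Cd4* was above background on only 1 HFrD array, and its call was lost with no scaling between arrays (limma adjusted p 0.0551). Of 7 dendritic cell markers 3 fell (42.9%) and 0 rose. The falls were *Cd74*, *RT1-Da* and *RT1-Ba*, by 1.05, 1.02 and 0.72, and the other members did not pass. *RT1-Bb*, the beta chain of the same class II molecule as *RT1-Ba*, had 663, 636 and 626 on HFrD, against 3381, 2688 and 3360 on chow (change -2.28, SE 0.09). Of 6 neutrophil markers 1 fell (16.7%), *S100a9*, by 0.53, and of 4 B and plasma cell markers 0 fell. The part of these cells in the inflammatory list was not tested. Immune genes named as lower had limma adjusted p from 2.59e-05 to 0.0137, and the 4 that rose from 3.81e-05 to 0.031.

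All 3 erythroid markers on the array rose, and their sum was 3897 to 4083 on HFrD and 671 to 835 on chow. *Ahsp*, the chaperone of alpha globin, had 1617, 1612 and 1593 on HFrD, against 206, 168 and 199 on chow (change 3.08, SE 0.10). *Alas2*, the erythroid enzyme that starts heme synthesis, had 2014, 2110 and 1954 on HFrD, against 545, 435 and 509 on chow (change 2.04, SE 0.08), and *Slc4a1*, the anion exchanger of red cells, rose by 2.26 (SE 0.23). The groups lay apart throughout. *Rhd*, a blood group antigen of red cells that is not on the list, had 428, 421 and 416 on HFrD and was not above background on chow, where it read 41.1, 49.9 and 35.3, so it rose at least 6.2-fold. *Tfrc*, the transferrin receptor that erythroid cells carry in plenty, rose by 0.80 (SE 0.09). The lists of stellate cells, sinusoidal endothelium and cholangiocytes had 2 of 11, 2 of 10 and 2 of 8 members higher and 0, 1 and 0 lower. These rises were 18.2%, 20% and 25% of the members, against 9.89% of all genes. *Col1a1*, which was above background on HFrD only, *Acta2* and *Timp1* did not pass. Of 46 genes of matrix and fibrosis 8 rose (17.4%, against 9.89% of all genes) and 4 fell (8.7%, against 6.09%). Limma adjusted p of the red cell genes that rose was 1.43e-05 to 0.00226.

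Zonation markers leaned in opposite directions. Of 19 genes of hepatocytes around the central vein 9 fell (47.4%, against 6.09% of all genes) and 3 rose (15.8%, against 9.89%). Of 23 genes of hepatocytes around the portal vein 7 rose (30.4%) and 1 fell (4.35%). *Rhbg*, an ammonium transporter of the innermost pericentral layer, read 52.4, 56 and 56.3 on HFrD, not above background, against 170, 168 and 151 on chow, and was at least 2.19-fold lower. *Aldh1b1*, a mitochondrial aldehyde dehydrogenase, had 1524, 1351 and 1475 on HFrD, against 400, 407 and 417 on chow (change 1.83, SE 0.06), and *Sds*, serine dehydratase, had 3186, 3381 and 3108 on HFrD, against 2061, 1742 and 2089 on chow (change 0.72, SE 0.11). Those 3 kept the diets apart. *Cyp7a1* belongs to the pericentral list too. The urea cycle genes *Cps1* and *Arg1*, at 0.07 and -0.19, did not pass, and of 74 respiratory chain and ATP synthase subunits 1 rose and 2 fell (1.35% and 2.7%). The 4 zonation genes named as changed had limma adjusted p from 8.73e-06 to 0.00684.

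Several of the largest changes lay outside the lists. *Sdr16c6*, a short-chain dehydrogenase that acts on retinol in mouse, had 2740, 2935 and 2978 on HFrD, against 76.9, 61.9 and 51.3 on chow, where 1 array detected it, the largest rise among called genes at 5.53 (SE 0.14). *Cd52*, a surface antigen of lymphocytes, had 664, 687 and 702 on HFrD, against 91.6, 87.1 and 99.1 on chow (change 2.89, SE 0.09). Both were higher on every HFrD array than on any chow array. *Tsx*, *Epha3* and *Trim80* were above background on HFrD only and rose at least 6.14-fold, 3.13-fold and 2.01-fold. *Nat8*, an acetyltransferase of the endoplasmic reticulum, had 457, 515 and 519 on HFrD, against 2373, 2409 and 2029 on chow (change -2.19, SE 0.11), and *Carns1*, carnosine synthase, had 73.3, 66.7 and 113 on HFrD, against 478, 643 and 638 on chow (change -2.82, SE 0.41). *Fam19a2*, a secreted chemokine-like protein, read 115, 121 and 335 on HFrD and 1212, 1361 and 878 on chow at -2.76 (SE 0.54), a call lost without HFrD 1 or 2 or chow 1 or 2 (limma adjusted p up to 0.0671), and its second probe was not above background. *Vxn*, *Ovol3*, *Akap5*, *Asb14* and *Ppp2r2b* were above background on chow only and were at least 3.83-fold, 1.7-fold, 2.21-fold, 1.81-fold and 3.5-fold lower on HFrD. All genes named outside the lists passed, at limma adjusted p from 3.6e-06 to 0.019.

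The arrays labelled INS carry the same pair of diet labels. Whether their pools came from other rats is not given in the sources used here, so they are no replicate of the first comparison. There 1012 genes (5.11%) were higher on HFrD INS than on chow INS and 1249 (6.31%) lower. Of the genes that rose without INS, 26% also rose with it, and these made up 50.3% of the INS rises. Of the genes that fell without INS, 44.9% also fell with it, and these made up 43.3% of the INS falls. *Scd1* was at 3.38 with INS and 3.64 without, and *Me1* at 3.30 and 3.17. *Mt2A* was at -4.65 with INS and -3.47 without, *Cyp7a1* at -2.31 and -2.90, *Abcg5* at -2.14 and -1.81, *Cidea* at -1.36 and -1.41, and *Marco* at -1.62 and -1.54. The size of the diet difference itself differed with and without INS for 1011 genes (5.11%), by the interaction term of a limma fit over all 18 liver arrays. The erythroid genes were among them, as *Ahsp* was at 0.59 with INS and 3.08 without and *Alas2* at 0.15 and 2.04. *Cd52* was at 0.19 with INS and 2.89 without. *Alox15* was not above background on either INS diet. *Bcl6*, at 0.01 with INS and -2.50 without, and *Socs2*, at -0.93 and 2.28, also differed between the sets. What else separates the pools is not given in the sources used here, so a treatment and the pools cannot be told apart.

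**Figure D5:**
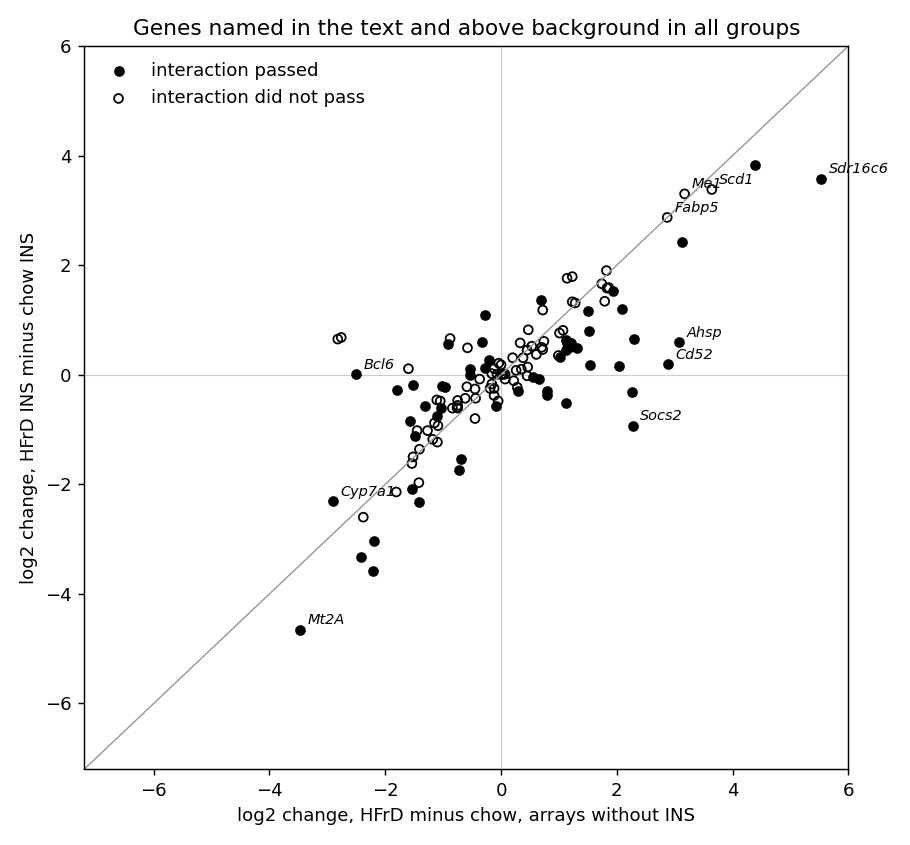
Change on HFrD relative to chow for the genes named in the text that were above background on at least 1 array of each of the 4 groups, on arrays with INS (vertical axis, log2) against arrays without INS (horizontal axis, log2). Filled points passed the interaction test and open points did not, and the diagonal marks equal change. *Scd1*, *Me1* and *Fabp5* lie near the diagonal, while *Cd52*, *Ahsp* and *Bcl6* lie between 0.01 and 0.59 on the INS axis.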

How the data were processed

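Liver RNA was measured on single-colour Cy5 arrays (Rat OneArray v1, read with GenePix). The authors pooled the RNA of a group's rats, hybridized each pool to 3 arrays and deposited, per the file headers, a raw intensity for each spot, with some values below 0 and no scaling between arrays. They also deposited a detection p-value for each spot, whose method is not given in the sources used here.

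The 9 liver arrays without INS were quantile-normalized together, values under 16 were set to that floor, and log2 was taken. A symbol's brightest probe stood for it, giving 19791 genes. The 3 diets were fitted with limma 3.58.1 in R 4.3.3 (lmFit, eBayes), with Benjamini-Hochberg adjustment over all genes and calls at an adjusted p under 0.05. The floor follows earlier work on these data, where it was chosen after counts were seen. A second fit over all 18 liver arrays gave the INS comparison and the interaction. The fit was tested on simulated data. Figures were drawn with matplotlib 3.10.9. An intensity of 65000 or more was taken as saturated. A gene not above background on 1 diet has only a lower bound, the brighter diet's mean over, per array, the higher of the dimmest detected signal and the gene's own. With 3 arrays against 3, an exact permutation test cannot go below 0.1, so none was used. Precision is limited by there being only 3 arrays a group.

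The text names the 15 largest rises and falls among called genes detected on all arrays of the brighter diet, up to 3 genes per list and direction, and a set of key genes, some of which are not reported here. From the lists, those whose calls held with each array left out were preferred after their values were seen, and 9 genes outside the rule were added then too. The members, lists and rule were chosen with earlier results of these data known. Scaling, floor, filter on dim genes, probe choice, spread and single arrays were varied.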

Additional observations from a re-analysis of the deposited data

Results flagged for a closer look

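The diet difference itself differed between the arrays with INS and those without for 1011 genes, by the interaction term of the limma fit over 18 liver arrays. Each value in parentheses is that difference of differences on the log2 scale, the HFrD minus chow change with INS minus the change without. Among genes named above, the change with INS lay below that without for *Socs2* (-3.22), *Cd52* (-2.71), *Slc4a1* (-2.58), *Ahsp* (-2.52), *Sdr16c6* (-1.97), *Alas2* (-1.90), *Pik3r1* (-1.64), *Onecut1* (-1.63), *Mt1* (-1.38), *Fgf21* (-1.37), *Mt2A* (-1.19) and *Dusp6* (-1.17). Next came *Tfrc* (-1.10), *RT1-Ba* (-1.01), *Idi1* (-0.92), *Fabp2* (-0.90), *Cxcl1* (-0.89), *Osgin1* (-0.84), *Angptl4* (-0.84), *Nat8* (-0.82), *Insig1* (-0.73), *Cxcl9* (-0.72), *Mki67* (-0.70) and *Fasn* (-0.70). Smaller negative differences belonged to *Per1* (-0.69), *Pdk4* (-0.67), *Rpia* (-0.65), *Idh1* (-0.60), *Vcam1* (-0.60), *Pnpla5* (-0.58), *Trib3* (-0.57), *Sqle* (-0.55), *Abhd5* (-0.49), *Cyp8b1* (-0.48), *Acly* (-0.41) and *Thrsp* (-0.34). Positive differences, where the change with INS lay above that without, were found for *Bcl6* (2.52), *Cyp2c12* (1.52), *Ccnd1* (1.47), *Nr0b2* (1.36), *Cyp4a2* (1.35), *G6pc1* (0.92), *RT1-Da* (0.83), *Btg2* (0.75), *Igfbp1* (0.74), *Foxa3* (0.73) and *Plin2* (0.68). Smaller positive differences belonged to *S100a9* (0.63), *Cyp7a1* (0.60), *Ppp1r3c* (0.53), *Ddit3* (0.48), *Abcb4* (0.45), *Insig2* (0.39), *Gstt3* (0.36) and *Akr7a3* (0.35). Other named genes that passed were not above background on any array of at least 1 of the 4 groups, so their values depend on the floor and are neither measured sizes nor ranked here, and these were *Alox15* (-4.52), *Asb14* (2.66), *Cyp7b1* (-0.86), *RT1-Bb* (-4.48), *Rhd* (-2.93), *Slc2a5* (-0.86) and *Tsx* (-1.91). Centring each array on its median left 372 such genes in all.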

How the results depend on the processing

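Centring each array on its median gave 751 falls in place of 1205, 619 calls between the INS diets in place of 2261, and 372 interaction calls in place of 1011, and it turned the small falls of *Insig2* to 0.15 and *Hsd17b11* to 0.07. The other scalings, floors, probe rules and spreads kept each count within 1.5 times. Leaving out 1 array gave 1690 (without HFrD 3) to 4500 (without HFrD-NDGA 3) calls, 992 to 2745 rises, 653 to 1755 falls and 318 to 459 changes of at least 2-fold, and 539 (without HFrD INS 1) to 1063 interaction calls. Of 153 named genes, 129 kept their direction and side of the threshold under median centring, 17 lost the call and 5 gained one. Dim genes have only bounds and saturated ones no measurable change. No paired analysis was possible because the array labels share no replicate numbers that tie samples across groups, and each group is 1 RNA pool. The rise and fall counts therefore describe 2 pools and not the rats.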
